A study of Mus musculus with 6 samples.

Results

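The normal proximal duodenum of the mouse was described from the 3 control libraries of a series of 6, across all 23699 gene models of the deposited expression files. The controls were the libraries titled control 1, 2 and 3, made from mice with the genotype Nkx2.2flox/+ (1 floxed and 1 unmodified allele of the homeodomain factor gene Nkx2-2, with no Cre transgene named), at an age of 6 weeks and on a mixed background. The 3 other libraries of the series came from Nkx2.2flox/flox;Villin-Cre/+ mice and were not analysed here, so nothing below is a comparison of genotypes. Each library held total RNA of the 2 cm of gut that follow the stomach, so it mixes epithelium, lamina propria, muscle and any tissue attached to the segment. The labels do not say whether each library came from a separate animal, and the spread between libraries may therefore be in part technical. No test was made, since there is only 1 group.

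The duodenum receives acid from the stomach and enzymes from the pancreas, and its villi take up fat, sugar, peptides, iron and calcium. Absorptive enterocytes make up most of the epithelium, and goblet, Paneth, enteroendocrine and tuft cells are its secretory types. Crypts at the base of the villi hold the stem cells and the dividing cells. Brunner glands, which lie under the mucosa next to the stomach, secrete mucin and trefoil peptides.

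Levels are given in FPKM, the number of sequenced fragments per kilobase of transcript, scaled to the depth of the library, which corrects for length and can be compared between genes. In bulk tissue, fewer cells of a type and less RNA per cell cannot be told apart. The estimated depth was 25.9, 21.5 and 21.2 M fragments in controls 1 to 3. Control 3 stood apart from the others: across 12481 genes, log2 levels correlated at 0.981 between controls 1 and 2, but at 0.971 and 0.966 between control 3 and these libraries. These correlations describe genes measured in the same libraries, which are not independent replicates. All 3 libraries held Y-linked transcripts, with Ddx3y at 11.4, 13.8 and 12.4 FPKM, and next to no Xist, at 0.0894, 0.0229 and 0.0293 FPKM. Xist stayed under 1 FPKM in each library. Beside counts of variable genes in a group, the count between controls 1 and 2 alone is given where control 3 bears on them.

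Of the 23699 gene models, 11964 (50.5%) reached 1 FPKM in all 3 libraries and 5372 were listed at 0 in all 3. The totals per library were 12276, 12530 and 12433 genes at or above that level. At 100 FPKM or more lay 1028, 1024 and 1067 genes, and at 1000 FPKM or more 82, 77 and 89 genes. A small number of genes carried much of the signal. The 10 genes of highest mean held 14.8%, 14.0% and 16.4% of total FPKM in controls 1 to 3 (15.1% ± 1.22, SD, n = 3), and the 100 highest held 38.6%, 37.4% and 39.0% (38.3% ± 0.820). Between 217 and 246 genes were enough for 50% of the total, and between 3651 and 3978 genes for 90%. These highest genes had short transcripts, with a median length of 813.5 bases among the top 100 against 2690 bases among genes with a mean of at least 1 FPKM. Because FPKM divides by length, the shares change when each level is multiplied by its transcript length, which approximates a share of fragments. The 10 genes highest on that scale, ranked anew, held 8.37% and the 100 highest 25.6%.

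**Figure D1:**
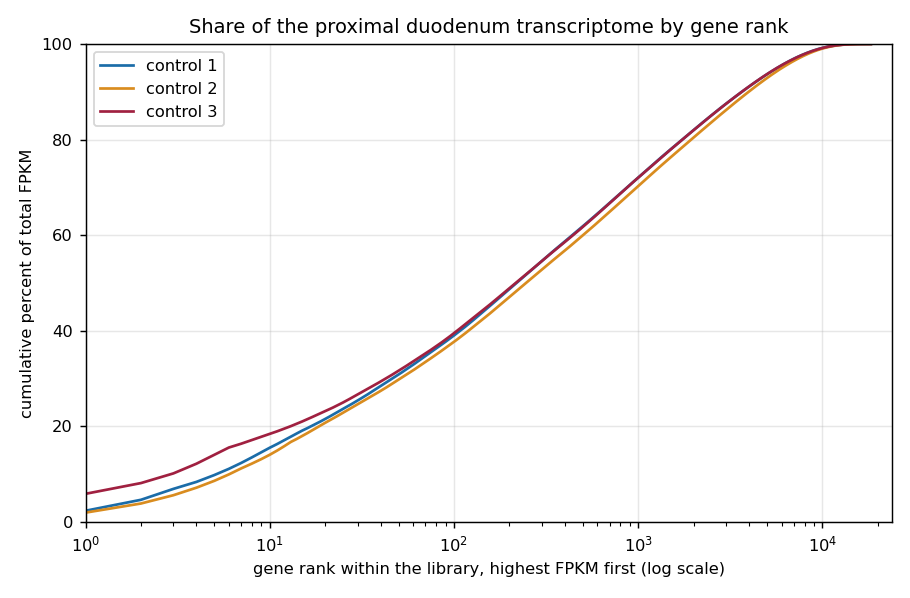
Cumulative percent of total FPKM (y axis) against gene rank on a log scale (x axis), each control library ranked on its own levels. The first gene held 2.37% in control 1, 1.98% in control 2 and 5.92% in control 3, and the 3 curves run close together from about rank 100 on.

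To describe how far a gene differed among the libraries, the range of log2(FPKM + 0.5) was taken over the 3 values, so that a range of 1 is about a 2-fold spread. Among 12481 genes with a mean of at least 1 FPKM the median range was 0.31. A range of at least 1 was reached by 698 genes (5.59%), and one of at least 2 by 163 genes (1.31%). Control 3 was the library farthest from the other two in 424 of the 698 (60.7%), of which it was high in 209 and low in 215. Over all 12481 genes it was farthest in 40.4% (high in 24.4%, low in 16.0%). Control 2 was farthest and high in 23.7% of them, and control 1 in 5.63%. The share of all genes highest or lowest in each library was not counted. Group counts of genes highest or lowest in a library thus have no such share beside them. Of the 12481 genes, 196 differed 2-fold between controls 1 and 2 alone (1.57%). With genes chosen by their mean in the remaining pair, the count was 202 of 12445 without control 3, and without control 2 and control 1 the counts were 442 and 515. Spread was not confined to weakly expressed genes: 16 of 80 genes with a mean of at least 1000 FPKM had a range of at least 1 (20%). The share was 8.93% between 100 and 1000 FPKM and 4.23% between 10 and 100 FPKM. Group counts below stand beside 5.59% of all genes for that range, and 1.57% between controls 1 and 2 alone. For groups at high levels, such as lipid uptake (median of the gene means 514 FPKM) and exocrine pancreas (677 FPKM), the 8.93% is nearer. A gene can also pass the filter on the mean through a high level in a single library, which favours a wide range.

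**Figure D2:**
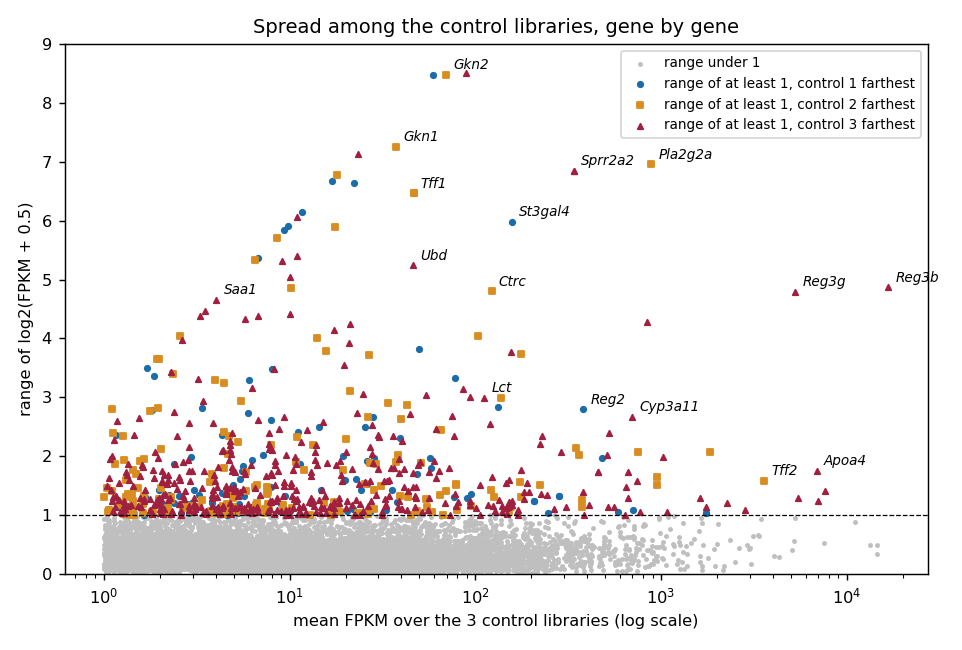
Range of log2(FPKM + 0.5) over the 3 control libraries (y axis) against mean FPKM on a log scale (x axis), 1 point per gene with a mean of at least 1 FPKM, coloured by the library farthest from the others where the range is at least 1 (dashed line). Gkn2 (range 8.48) and Gkn1 (7.25) stand at the top, and Reg3b and Reg3g combine a wide range with a very high level.

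The 30 genes of highest mean FPKM came from few functions. They held 5 genes of lipid uptake, 4 Paneth cell products, 3 members of the Reg family of secreted lectins, 2 intestinal alkaline phosphatases, 2 goblet cell products and the pancreatic enzyme genes Ctrb1 and Cela2a. Fth1 (chromosome 19, 10057193 to 10059582 on mm9), the heavy chain of the iron store ferritin, lay at 16242, 12797 and 14692 FPKM. It was the highest gene of control 1. S100g (chromosome X, 159399924 to 159402531), the vitamin D-dependent calcium carrier calbindin-D9k, lay at 15683, 11632 and 16288 FPKM. Its gene model overlaps that of Ctps2. Both genes lay within 1.5-fold over the libraries (1.27-fold and 1.40-fold). Prap1, which encodes a secreted acidic protein of the gut lining, lay at 15615, 13292 and 11118 FPKM, the highest level in control 2. Plac8 (4180 to 5576 FPKM) and Crip1 (2570 to 3513 FPKM), which encode small cysteine-rich proteins, and Eef1a1 (2370 to 2747 FPKM), a translation elongation factor, were also among the 30. Mir703, a model of 109 bases inside another gene, is listed at rank 18, and its level at that length is uncertain. Of the 30, 9 reached a range of at least 1 (30%), beside 5.59% of all genes and 20% of the 80 genes with a mean of at least 1000 FPKM. They were Reg3b, Reg3g, Apoa1, Apoa4, Akp3, Fabp2, Tff2, Cela2a and 2210407C18Rik. A very high level in a single library also raises the rank by mean, as in Reg3b and Reg3g.

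**Figure D3:**
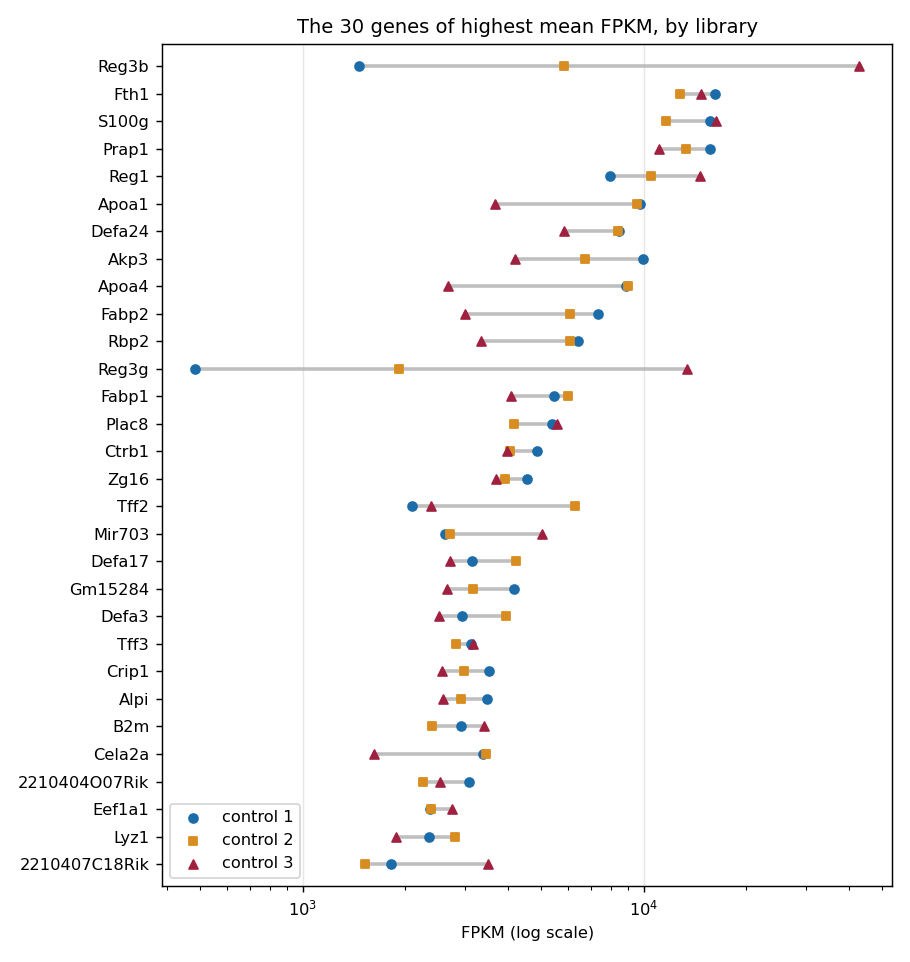
FPKM on a log scale (x axis) of the 30 genes of highest mean, in order of that mean, with 1 point per control library and a grey line from the lowest to the highest. Most lines are short, while Reg3b spans 1466 to 42934 FPKM and Reg3g 484 to 13426 FPKM, with control 3 highest in both.

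The gene of highest mean was also one of the most variable. Reg3b (chromosome 6, 78320879 to 78323460), a C-type lectin that epithelial cells secrete against bacteria, lay at 1466, 5823 and 42934 FPKM, a 29.3-fold spread. Reg3g (chromosome 6, 78416262 to 78418868), a lectin that kills Gram-positive bacteria, lay at 484, 1915 and 13426 FPKM, a 27.8-fold spread. Both were lowest in control 1, intermediate in control 2 and highest in control 3. Their ratio changed little, at 3.03, 3.04 and 3.20 in controls 1 to 3. Reg3a, another lectin of the family, followed the same order, from 29.2 FPKM in control 1 to 151 FPKM in control 3. Reg1, a member that pancreatic acinar cells also make, lay at 7946, 10551 and 14681 FPKM, and Reg3d at 17.1, 24.6 and 24.9 FPKM. Reg2 was low in control 1 only, at 84.1, 587 and 474 FPKM, and Reg4 had the opposite order to Reg3b, at 181, 158 and 80.8 FPKM. Of the 7 measured members, 5 had a range of at least 1 (71.4%, beside 5.59% of all genes). Between controls 1 and 2 alone 3 differed 2-fold, beside 1.57% of all genes. The family held 1.49%, 2.85% and 9.89% of total FPKM (4.75% ± 4.51, mean ± SD, n = 3), or 3.10% ± 4.09 without Reg1 and Reg2, which stand in the pancreas list too. Of these genes, 6 lie in a row within 97990 bases of chromosome 6 (78320879 to 78418868, mm9), with no other gene model in that span.

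The sequences upstream of Reg3b and Reg3g are shown because the genes kept nearly the same ratio while their levels spread widely. They are the 250 bases before the annotated start site, from RefSeq on GRCm38.p6, at chr6:78370635-78370884 on the plus strand and chr6:78468875-78469124 on the minus strand. Capitals mark the longest run of bases that is identical in both, 20 bases at the end of each window.
Reg3b: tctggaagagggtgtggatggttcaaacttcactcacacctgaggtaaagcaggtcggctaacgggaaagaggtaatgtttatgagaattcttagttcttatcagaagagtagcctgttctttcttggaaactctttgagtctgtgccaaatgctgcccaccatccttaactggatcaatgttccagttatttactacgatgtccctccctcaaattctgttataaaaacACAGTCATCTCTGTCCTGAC
Reg3g: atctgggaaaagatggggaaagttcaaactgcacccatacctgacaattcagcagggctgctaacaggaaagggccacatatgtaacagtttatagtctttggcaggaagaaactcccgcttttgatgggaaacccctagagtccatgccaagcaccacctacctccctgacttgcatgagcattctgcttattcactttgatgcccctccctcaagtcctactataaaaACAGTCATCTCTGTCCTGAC
On both strands of all 32851 RefSeq mouse promoter windows of this length, TATAAA was found in 12.4%, TTCNNNGAA in 7.02% and TGATAA in 7.94%. TATAAA began 29 bases before the start site in Reg3b and 27 bases before it in Reg3g, which has another match on the minus strand. TTCNNNGAA and TGATAA each had 1 match in Reg3b and 0 in Reg3g. These matches describe letters in the windows and no binding was measured.

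Lipid uptake is a main task of the absorptive enterocyte. Its 18 genes held 6.45%, 6.36% and 2.96% of total FPKM (5.26% ± 1.99), and 15 of them were lowest in control 3. That library was farthest and low in 13 of the 18, beside 16.0% of all genes. Apoa1, an apolipoprotein of chylomicrons and high-density lipoprotein, lay at 9779.9, 9585 and 3663 FPKM. Apoa4, which is secreted with chylomicrons, lay at 8903, 9033 and 2676 FPKM. In both, controls 1 and 2 were nearly equal and control 3 was lower, 2.67-fold and 3.38-fold over the whole spread. Apoc3, an inhibitor of lipoprotein lipase whose gene neighbours Apoa1, kept a steady ratio to it (12.1, 11.4 and 12.2 of Apoa1 to Apoc3). Fabp2, the intestinal fatty acid carrier, lay at 7364, 6103 and 2992 FPKM, and Rbp2, which carries retinol, at 6433, 6065 and 3331 FPKM. Dgat2, an enzyme of triglyceride synthesis, lay at 524, 412 and 200.2 FPKM, and the fatty acid transporter gene Cd36 at 26.9, 31.5 and 13.6 FPKM. Other steps of the same route differed little: Mogat2, which acylates monoglycerides, lay at 278, 258 and 279 FPKM, Mttp, which loads lipid onto apolipoprotein B, at 765, 701 and 654 FPKM, and Apoc2 at 2024, 2022 and 1835 FPKM. In all, 6 of 18 had a range of at least 1 (33.3%, beside 5.59% of all genes), and 0 of 18 differed 2-fold between controls 1 and 2 (1.57% of all genes).

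The 18 digestive enzymes of the brush border, the microvillus surface where nutrients are cut before uptake, held 2.54%, 1.97% and 1.34% of total FPKM. Akp3, a duodenal alkaline phosphatase, lay at 9990.1, 6735 and 4205 FPKM, and its neighbour Alpi at 3480.2, 2916 and 2578 FPKM. The peptidases Anpep (523 ± 63.96 FPKM, mean ± SD, n = 3) and Mep1b (379.5 ± 80.7 FPKM) and the starch and sucrose enzymes Mgam (340.5 ± 30.6 FPKM) and Sis (325 ± 59.03 FPKM) were next in level. Lct, the lactase that cleaves milk sugar, was the most variable enzyme of the group at 173, 139 and 21.3 FPKM, low in control 3. The ratio of Sis to Lct was 1.87, 2.77 and 12.6. Tmprss15 (enteropeptidase), which activates trypsinogen in the duodenum, lay at 179, 134 and 109 FPKM. Of the 18, 14 were lowest in control 3 and 4 had a range of at least 1 (22.2%, beside 5.59% of all genes). In 9 of the 18 control 3 was farthest and low, beside 16.0% of all genes. Between controls 1 and 2 alone 0 differed 2-fold. The structural proteins of microvilli were steadier, with 0 of 10 at a range of 1: Vil1 (villin) lay at 651, 578 and 561 FPKM and Pls1 (plastin) at 206, 212 and 209 FPKM. Krt20, a keratin of mature villus cells, lay at 1436, 1334 and 989 FPKM.

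Uptake of the other nutrients was represented at high levels. The sodium-glucose cotransporter gene Slc5a1 lay at 768, 636 and 629.9 FPKM, and the fructose transporter gene Slc2a5 at 72.6, 70.6 and 91.3 FPKM. G6pc, the last enzyme of glucose release, was the 1 of 7 measured sugar genes with a range of at least 1, at 16.01, 18.4 and 2.98 FPKM, and 0 of 7 differed 2-fold between controls 1 and 2 alone. The peptide transporter gene Slc15a1 lay at 81.5, 64.2 and 58.1 FPKM, and 0 of 9 amino acid and peptide transporters had a range of at least 1. For iron, the luminal importer gene Slc11a2 lay at 155, 198 and 253 FPKM, the ferric reductase gene Cybrd1 at 147, 172 and 105 FPKM, and the basolateral exporter gene Slc40a1 (ferroportin) at 510.4, 418 and 526 FPKM. Slc11a2 and Cybrd1 did not share an order over the libraries. For calcium, the channel gene Trpv6 lay at 76.8, 89.1 and 103 FPKM and the vitamin D receptor gene Vdr at 214, 223 and 158 FPKM, while Cyp24a1, which degrades vitamin D, was at or next to 0 (0, 0 and 0.0152 FPKM). The iron group held 2.39% ± 0.240 of total FPKM and the calcium group 2.16% ± 0.307, nearly all of it Fth1 and S100g.

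Regional identity genes of the proximal gut were expressed, and they were among the steadiest groups. Pdx1, a factor of pancreas and proximal duodenum, lay at 88.4, 93.7 and 87.2 FPKM, and Gata4, a factor of the proximal small intestine, at 68.6, 71.2 and 66.5 FPKM. Hnf4a, which drives enterocyte genes, lay at 208, 231 and 202 FPKM, Cdx2, the intestinal homeobox factor, at 64.01, 63.3 and 80.9 FPKM, and Isx, which represses vitamin A uptake, at 73.4, 95.1 and 76.7 FPKM. None of the 12 intestinal transcription factors reached a range of 1, and their median range was 0.18. Of 6 measured genes listed for the distal small intestine, Ostb, a subunit of the bile acid exporter, lay at 105, 80.8 and 128 FPKM and Guca2a (guanylin) at 84.2, 122 and 83.9 FPKM. The other 4 had means under 3 FPKM. Fabp6, the ileal bile acid carrier, lay at 1.29, 0.259 and 1.58 FPKM, Slc10a2, the ileal bile acid importer, at 0.832, 0.905 and 0.559 FPKM, and Osr2 between 0.0306 and 0.0622 FPKM. Cubn, the receptor of the vitamin B12 complex, lay at 4.496, 2.46 and 0.487 FPKM.

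Paneth cells, which guard the crypt base with antimicrobial peptides, held 3.40%, 3.65% and 2.62% of total FPKM over 17 genes. The alpha-defensin genes Defa24 (8447, 8428 and 5828 FPKM), Defa17 (3139, 4223 and 2710.0 FPKM) and Defa3 (2936, 3959 and 2519 FPKM) led, followed by Lyz1, lysozyme, at 2343, 2801 and 1879 FPKM. Alpha-defensin genes are near-identical copies, so how fragments were split among them is uncertain, and Defa24 overlaps the model of Defa6. The counts went another way: the authors' deposited table lists Defa24 at a mean of 29.5 normalized counts over the controls, Defa17 at 1926, Defa3 at 811 and Defa23 at 0, where the coverage of the models gave an estimated 36854, 15547, 14462 and 8563 fragments per library. In that table the Paneth genes held 0.448% of counts and the goblet cell genes 1.06%, against 3.22% and 1.65% of FPKM, so the order of these groups depends on the measure. The ratio of Defa17 to Defa3 was 1.07, 1.07 and 1.08. Pla2g2a, a secreted phospholipase that kills bacteria, had the widest range of the group: it lay at 840.3, 14.00 and 1805 FPKM, a 129-fold spread with control 2 low, while Lyz1 and the leading defensins were not low there. Its model overlaps that of Pla2g5. Of the 17 genes, 4 had a range of at least 1 (23.5%, beside 5.59% of all genes), Defa23 and Defa-rs7 among them. Between controls 1 and 2 alone 3 differed 2-fold, beside 1.57% of all genes. Goblet cells, which secrete mucus, held 1.67%, 1.64% and 1.65% of total FPKM over 14 genes, or 1.05% ± 0.0709 without Zg16 and Guca2a, which stand in other lists too. Zg16, a lectin of mucus granules that the exocrine pancreas also makes, lay at 4565, 3912 and 3680.0 FPKM, Tff3, the trefoil peptide of goblet cells, at 3120.2, 2812 and 3166 FPKM, and Agr2, a mucin folding factor, at 477, 908 and 599 FPKM. Retnlb, a bactericidal goblet cell protein, was the 1 member with a range of at least 1 (3 members under quantile scaling and 2 under TPM scaling), at 2.27, 1.42 and 20.9 FPKM, high in control 3, and 0 of 14 differed 2-fold between controls 1 and 2 alone.

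Enteroendocrine hormones were scarce by share, at 0.0829%, 0.0869% and 0.0613% of total FPKM over 14 genes, but most were readily measured. In order of mean level, Gip, the incretin of K cells, lay at 164, 145 and 106 FPKM, Sct (secretin) at 143, 165 and 101 FPKM, Cck (cholecystokinin) at 81.4, 70.6 and 75.6 FPKM, Ghrl (ghrelin) at 82.4, 70.8 and 58.6 FPKM and Sst (somatostatin) at 56.5, 84.6 and 70.2 FPKM. The values of Gip and Sct overlapped over the libraries, as did those of Cck, Ghrl and Sst. Pyy lay at 17.5, 18.3 and 10.2 FPKM, Tac1, the substance P precursor, at 11.1, 10.7 and 11.3 FPKM, and Gcg, the proglucagon gene, at 5.62, 5.57 and 4.18 FPKM. Iapp, Ucn3, Nmb and Nts had means between 1.02 and 1.87 FPKM, and Insl5, a hormone of the colon, was listed at 0 in all 3. Gast, gastrin, was highest in control 2, at 0.156, 6.37 and 0.572 FPKM. Among genes of the serotonin-making enterochromaffin cell, Chga and Chgb, granule proteins, lay at 52.2, 44.02 and 23.9 FPKM and 113, 110.4 and 61.1 FPKM, and Tph1, the rate-limiting enzyme of serotonin synthesis, at 19.5, 15.3 and 9.19 FPKM. All 3 were lowest in control 3. Of 9 measured genes 5 were lowest there, 3 in control 1 and 1 in control 2. A range of at least 1 was reached by 3 of the 9 (Chga, Tph1 and the irritant channel gene Trpa1), while 0 differed 2-fold between controls 1 and 2 alone. Nkx2-2 itself, the gene that is floxed in these mice on 1 allele, lay at 1.13, 1.32 and 0.779 FPKM, and Neurog3, the factor that starts endocrine differentiation, at 2.84, 2.898 and 2.52 FPKM. Neurod1 lay at 2.12, 2.23 and 1.55 FPKM, Insm1 at 1.46, 1.57 and 0.779 FPKM, Isl1 at 0.576, 1.03 and 0.745 FPKM, Mnx1 at 0.856, 0.958 and 0.786 FPKM and Pax4 at 1.03, 0.7501 and 0.225 FPKM. Foxa1 (3.71, 5.76 and 5.67 FPKM) and Foxa2 (1.85, 2.73 and 1.85 FPKM) are not restricted to endocrine cells, and Rfx3, Rfx6 and Pax6 lay between 0.234 and 0.961 FPKM. Control 2 was the highest library in all 6 factors with a mean of at least 1 FPKM, but in 2 of the 6 under quantile scaling. It was farthest and high in 1 of the 6, beside 23.7% of all genes.

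Tuft cells, the chemosensory cells, were among the faintest epithelial types, at 0.00694%, 0.00830% and 0.00615% of total FPKM over 13 genes. Dclk1, their usual marker, lay at 1.36, 1.74 and 1.25 FPKM, the cation channel gene Trpm5 at 1.71, 2.14 and 3.45 FPKM, and their lineage factor Pou2f3 at 0.445, 0.774 and 0.484 FPKM. Crypt stem cells showed Olfm4 at 271, 292 and 156 FPKM, Smoc2 at 27.7, 34.1 and 31.6 FPKM, Ascl2 at 3.37, 4.61 and 2.26 FPKM and Lgr5, the stem cell receptor, at 1.23, 2.29 and 1.36 FPKM. Of 15 crypt genes, 13 were highest in control 2 and 0 had a range of at least 1 (1 under quantile or TPM scaling). Of 20 proliferation genes, such as Mki67 (15.1, 18.7 and 16.5 FPKM), Pcna (73.2, 82.6 and 71.6 FPKM) and Top2a (26.7, 33.2 and 25.4 FPKM), 15 were highest in control 2 and 0 reached a range of 1. Cholesterol synthesis showed the same order, with 15 of 17 genes highest in control 2 and 0 at a range of 1. Control 2 was farthest and high in 6 of the 15 crypt, 11 of the 20 proliferation and 8 of the 17 cholesterol genes, beside 23.7% of all genes. These shifts were small, with median deviations of 0.21, 0.15 and 0.20 on the log2 scale in control 2 for crypt, proliferation and cholesterol genes, beside 0.05 over all genes, and they kept this sign under upper quartile, quantile and TPM scaling.

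Cells outside the epithelium were represented at lower shares. Smooth muscle genes held 0.131%, 0.114% and 0.195% of total FPKM, and all 12 were highest in control 3 (11 under upper quartile or TPM scaling). That library was farthest and high in 11 of them, beside 24.4% of all genes. A range of at least 1 was reached by 2 of the 12, and 0 differed 2-fold between controls 1 and 2 alone. Acta2, smooth muscle actin, lay at 146, 116 and 242 FPKM, and Actg2, the enteric isoform, at 91.5, 66.2 and 209 FPKM. Fibroblast genes included Col3a1 at 64.00, 56.3 and 108 FPKM and Dcn (decorin) at 71.2, 78.5 and 101 FPKM. They were highest in control 3 in 8 of 11 (6 under each of the other scalings), and 0 of 11 had a range of at least 1. That library was farthest and high in 8 of the 11, beside 24.4% of all genes. Endothelium was represented by Plvap at 45.2, 51.9 and 65.1 FPKM and Pecam1 at 9.41, 11.1 and 13.1 FPKM, enteric neurons by Vip at 17.4, 22.3 and 25.4 FPKM and Uchl1 at 6.06, 8.18 and 7.57 FPKM, and enteric glia by Sox10 at 0.563, 0.5499 and 0.391 FPKM. Macrophage and dendritic cell genes were steady, with C1qa at 54.2, 55.3 and 66.2 FPKM, Csf1r at 17.04, 18.2 and 16.5 FPKM and a median range of 0.28 over 15 genes. Among plasma cell genes Igj, the joining chain of secreted antibodies, lay at 799, 899 and 1561 FPKM and was highest in control 3. Of 7 plasma cell genes 1 had a range of at least 1, and 0 differed 2-fold between controls 1 and 2 alone. Ms4a1, a marker of B cells before that stage, lay at 0.0825, 0.124 and 0.328 FPKM. Of the intraepithelial lymphocyte genes, Gzma lay at 183, 131 and 134 FPKM, Gzmb at 60.7, 44.4 and 32.2 FPKM and Cd8a at 10.7, 8.99 and 4.996 FPKM. Of 15 such genes 10 were lowest in control 3 and 3 had a range of at least 1 (20%, beside 5.59% of all genes). In 7 of the 15 control 3 was farthest and low, beside 16.0% of all genes. Between controls 1 and 2 alone 0 differed 2-fold. Of 14 mast cell and granulocyte genes 4 had a mean of at least 1 FPKM: the mast cell proteases Mcpt1 (3.82, 4.83 and 6.39 FPKM) and Mcpt2 (1.75, 3.14 and 3.06 FPKM), Ltf, lactoferrin (1.78, 3.298 and 9.26 FPKM), and Prg2, an eosinophil granule protein (2.18, 1.24 and 3.05 FPKM). Ltf and Prg2 had a range of at least 1, and 0 of the 4 differed 2-fold between controls 1 and 2 alone. S100a8, a neutrophil protein, lay at 0.2095, 1.01 and 1.03 FPKM.

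Transcripts of neighbouring organs were part of the control profile. The 28 genes of the exocrine pancreas, which lies against the duodenum, held 5.93%, 6.01% and 5.05% of total FPKM (5.67% ± 0.532), a share within the spread of that of lipid uptake. Several of them are made in the gut as well: without Reg1, Reg2 and Zg16, which stand in other lists too, the share was 3.44% ± 0.865. Ctrb1, chymotrypsinogen, lay at 4879, 4059 and 3982 FPKM, Cela2a, a pancreatic elastase, at 3389, 3452 and 1616 FPKM, Pnlip, pancreatic lipase, at 1967, 1930.1 and 1021 FPKM, and Cpa1, a carboxypeptidase, at 870.1, 783 and 496 FPKM. Of the 28, 22 were lowest in control 3, which was farthest and low in 18, beside 16.0% of all genes. A range of at least 1 was reached by 9 of the 28 (32.1%, beside 5.59% of all genes), while 4 differed 2-fold between controls 1 and 2 alone (1.57% of all genes). The ratio of Cela2a to Cela1 was steady, at 1.60, 1.61 and 1.66. Ctrc, chymotrypsin C, was low in control 2 alone, at 191, 6.33 and 169.7 FPKM, while Ctrb1, Cela2a and Pnlip were not, and its model overlaps that of 1810035I16Rik. The trypsinogen gene Prss3 (83.9, 17.3 and 95.9 FPKM) showed the same library low. Trypsinogen genes are near-identical copies and their split is uncertain. Endocrine pancreas was faint, with Ins2 at 8.67, 7.59 and 15.1 FPKM and Ins1 at 0.566, 1.02 and 1.04 FPKM. Of 12 liver genes 9 had a mean under 1 FPKM: Alb (albumin) lay at 0.249, 0.225 and 0.153 FPKM, and the fibrinogen genes Fga, Fgb and Fgg were listed at 0 in all 3. The other 3 were Afp, alpha-fetoprotein, at 25.6, 25.1 and 10.6 FPKM, Trf (transferrin) at 9.21, 11.9 and 10.6 FPKM and Ttr (transthyretin) at 7.01, 6.35 and 2.49 FPKM. Afp and Ttr had a range of at least 1, low in control 3, and 0 of the 3 differed 2-fold between controls 1 and 2 alone. Squamous epithelium, which lines part of the mouse stomach, was next to 0, with Krt5 at 0, 0.0232 and 0 FPKM and Krt13 at 0, 0.166 and 0 FPKM.

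**Figure D4:**
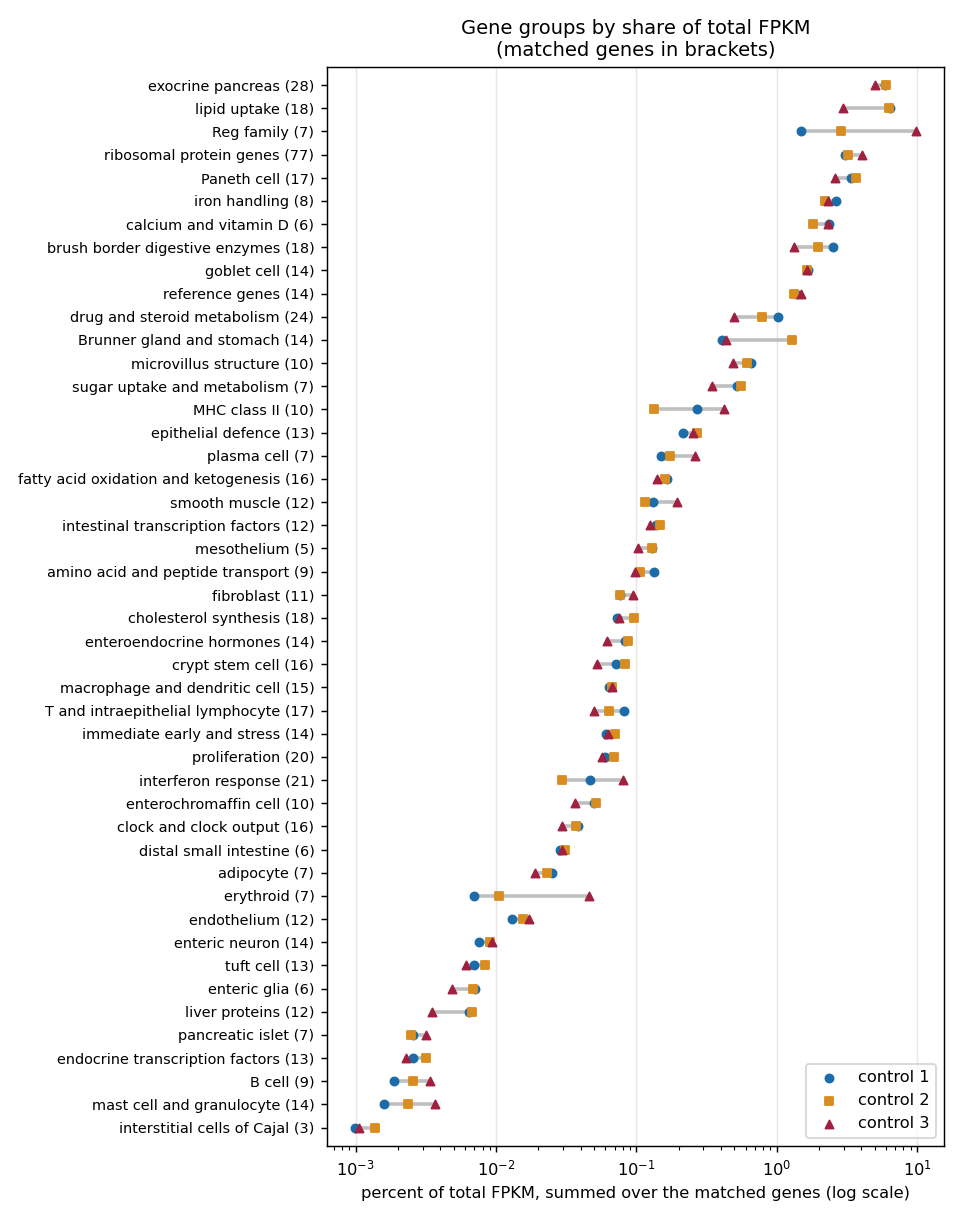
Percent of total FPKM on a log scale (x axis) summed over the matched genes of each group (rows, with their number), with 1 point per control library and a grey line from lowest to highest. Exocrine pancreas, lipid uptake and Reg genes lead by mean share of FPKM. This order depends on the measure: of estimated fragments, lipid uptake held 3.35%, brush border enzymes 2.88%, exocrine pancreas 2.67% and Reg genes 1.75%. The authors' counts gave these groups the same order as the fragments. The widest lines are those of Reg genes (1.49% to 9.89%), erythroid genes, MHC class II and Brunner gland and stomach genes. By mean, Krt19 holds 826 of the 829 FPKM of the mesothelium row, and Erbb3 40.2 of the 43.4 FPKM of the enteric glia row.

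Genes of Brunner glands and stomach separated control 2 from the others. Their summed share was 0.408%, 1.29% and 0.434% of total FPKM. Of 14 such genes 9 had a mean of at least 1 FPKM, a filter that a gene such as Gkn1 passed through control 2 alone. All 9 were highest in control 2 under each scaling tried, and all 9 had a range of at least 1, beside 5.59% of all genes. Control 2 was farthest and high in 7 of the 9, beside 23.7% of all genes. Between controls 1 and 2 alone 8 of the 9 differed 2-fold. Gkn2 (chromosome 6, 87323359 to 87329488) and Gkn1 (chromosome 6, 87295647 to 87300909), which encode gastrokines of the stomach surface, lay at 1.28, 207 and 0.0823 FPKM and at 0.792, 111 and 0.231 FPKM. Tff1, the trefoil peptide of gastric surface cells, lay at 2.56, 136 and 1.05 FPKM (a pair of rows share this name, with equal values, and the authors' deposited table lists it at 0), and Muc5ac, the surface mucin, at 0.02296, 2.86 and 0.00281 FPKM. Genes of glands were spread less and were present throughout: Tff2, a trefoil peptide of Brunner glands and gastric neck cells, lay at 2096, 6296 and 2379 FPKM, Gkn3 at 569, 1624 and 673 FPKM, and Muc6, the gland mucin, at 23.8, 95.1 and 52.6 FPKM. The ratio of Tff2 to Gkn3 stayed at 3.68, 3.88 and 3.53. Pgc, a pepsinogen, lay at 14.1, 38.8 and 7.55 FPKM, and Aqp5, a water channel of glands, at 5.17, 20.7 and 6.503 FPKM. Transcripts of acid-secreting parietal cells stayed under 1 FPKM in all 3 libraries, with Atp4a at 0.0824, 0.08504 and 0.0432 FPKM and Atp4b at 0.0341, 0.0411 and 0 FPKM. Gif, which encodes intrinsic factor, lay at 0.202, 0.278 and 0.212 FPKM. Other genes highest in control 2 included Psca, a surface antigen of gastric mucosa, at 4.42, 25.4 and 0.289 FPKM, and Akr1e1, a reductase, at 1.75, 28.4 and 0.496 FPKM. How close the segment of control 2 lay to the stomach was not tested.

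The sequences upstream of Gkn1 and Gkn2 are shown because the genes are neighbours on chromosome 6 and both were high in control 2 alone. They are again the 250 bases before the RefSeq start site on GRCm38.p6, at chr6:87350916-87351165 on the minus strand and chr6:87373115-87373364 on the plus strand. Capitals mark TGATAA, or its reverse complement, a form of the letters read by GATA factors. Other forms, such as AGATAA, were not searched and are not marked.
Gkn1: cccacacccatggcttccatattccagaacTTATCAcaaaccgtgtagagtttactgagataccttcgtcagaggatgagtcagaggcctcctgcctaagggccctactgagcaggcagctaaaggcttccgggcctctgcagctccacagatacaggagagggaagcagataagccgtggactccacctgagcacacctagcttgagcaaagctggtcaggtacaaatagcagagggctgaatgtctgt
Gkn2: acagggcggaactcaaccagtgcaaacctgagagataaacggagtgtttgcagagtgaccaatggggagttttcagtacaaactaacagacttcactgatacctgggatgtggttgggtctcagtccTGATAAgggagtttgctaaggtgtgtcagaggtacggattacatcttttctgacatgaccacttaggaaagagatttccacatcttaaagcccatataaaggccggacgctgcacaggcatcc
Each window held 1 match to TGATAA, 220 bases before the start site on the minus strand in Gkn1 and 123 bases before it on the plus strand in Gkn2. TATAAA was found in Gkn2 (29 bases before the start site) and not in the window of Gkn1. Gkn1, Gkn2 and Gkn3 lie within 43283 bases (chromosome 6, 87295647 to 87338929, mm9) with no other gene model among them.

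Genes of epithelial defence, antigen presentation and the interferon response were high in control 3, under each scaling tried. Of 13 defence genes 10 had a mean of at least 1 FPKM, a filter that some, such as Saa1 and Nos2, passed through control 3 alone. Of these 10 defence genes 9 had a range of at least 1, beside 5.59% of all genes, and 8 were highest in control 3. That library was farthest and high in 8, beside 24.4% of all genes. Duoxa2 and Duox2, the pair that makes hydrogen peroxide at the luminal surface, lay at 1.38, 1.36 and 16.1 FPKM and 0.754, 0.9400 and 6.97 FPKM, and Nos2, the inducible nitric oxide synthase, at 0.544, 0.619 and 2.85 FPKM. Saa1, an acute-phase protein, was listed at 0 in controls 1 and 2 and at 12.1 FPKM in control 3. Lcn2, which binds bacterial iron carriers, lay at 4.92, 8.57 and 17.9 FPKM, and Zbp1, a nucleic acid sensor, at 26.5, 15.9 and 78.3 FPKM. Pigr, the receptor that carries antibodies into the lumen, was the steady member, at 1426, 1765 and 1671 FPKM. Between controls 1 and 2 alone 1 of the 10 differed 2-fold, namely Sprr1a at 2.43, 7.83 and 4.67 FPKM. Sprr2a2, a small proline-rich protein, lay at 48.5, 7.84 and 961 FPKM (a pair of rows share this name, their values are nearly equal, and the authors' deposited table lists it at 0), and Ubd, a ubiquitin-like protein induced by cytokines, at 13.9, 2.71 and 122 FPKM. Both were lowest in control 2 and highest in control 3.

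MHC class II genes, whose products show peptides to T cells, spread over all 3 libraries. H2-Ab1 lay at 379.7, 140.4 and 570.1 FPKM and H2-Aa at 316, 135 and 594 FPKM, with control 2 low, control 1 between and control 3 high. Ciita, the coactivator that turns on these genes, lay at 2.93, 2.37 and 5.32 FPKM, and H2-DMb1, a peptide loading factor, at 31.9, 11.7 and 75.2 FPKM. Of 9 genes 7 had a range of at least 1 (77.8%, beside 5.59% of all genes), 8 were highest in control 3 and 7 were lowest in control 2. Control 3 was farthest and high in 3 of the 9 (24.4% of all genes), and control 2 farthest and low in 5 (8.37% of all genes). Between controls 1 and 2 alone 4 of the 9 differed 2-fold, beside 1.57% of all genes. The same order held in the interferon response, where 19 of 20 genes were highest in control 3 and 18 lowest in control 2. There, control 3 was farthest and high in 15 of the 20, beside 24.4% of all genes. A range of at least 1 was reached by 14 of the 20 (70%). Igtp, a GTPase induced by interferon gamma, lay at 34.9, 13.4 and 114 FPKM, Isg15, a ubiquitin-like modifier, at 41.5, 22.5 and 82.6 FPKM, and Ifit1, which binds viral RNA, at 25.2, 14.3 and 50.4 FPKM. Between controls 1 and 2 alone 1 of 20 differed 2-fold. Over the same libraries the summed share of the 15 macrophage and dendritic cell genes was 0.0638%, 0.0673% and 0.0668%. That of 9 B cell genes was 0.00186%, 0.00255% and 0.00337%. The part of cell numbers in these differences was not tested.

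Genes of drug and steroid metabolism, many of them targets of nuclear receptors, were highest in control 1 and lowest in control 3 in most cases. Of 24 measured genes, 20 were highest in control 1 and 20 lowest in control 3 (22 under the other scalings). Control 1 was farthest and high in 12 of the 24, beside 5.63% of all genes, and control 3 farthest and low in 10, beside 16.0%. A range of at least 1 was reached by 13 of the 24 (54.2%, beside 5.59% of all genes). Cyp3a11, the main intestinal enzyme of drug oxidation, lay at 1201, 702 and 188 FPKM, Cyp2b10 at 344, 272 and 67.5 FPKM, Cyp2c29 at 35.5, 26.8 and 1.39 FPKM and the carboxylesterase gene Ces2a at 267, 95.5 and 36.9 FPKM. The levels stepped down from control 1 through control 2 to control 3 in each of these 4. Gsta4 (796, 631 and 591 FPKM) and Ces2e (348, 314 and 289.8 FPKM) spread less. Of the 24, 4 differed 2-fold between controls 1 and 2 alone. Among genes of fatty acid oxidation, Pdk4, a kinase that slows glucose use, lay at 49.1, 31.9 and 9.17 FPKM, Cyp4a10 at 11.5, 9.45 and 2.25 FPKM and their regulator Ppara at 17.6, 14.6 and 6.86 FPKM, each lowest in control 3. Angptl4, an inhibitor of lipoprotein lipase, lay at 24.8, 8.86 and 10.4 FPKM. Of 15 measured genes 5 had a range of at least 1 (33.3%, beside 5.59% of all genes), these 4 among them. Between controls 1 and 2 alone 1 of 15, Angptl4, differed 2-fold. The other 10 stayed under a range of 1, such as Acadm at 105, 110.2 and 103 FPKM and Cpt1a at 58.1, 55.8 and 57.8 FPKM.

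Clock genes, which cycle over the day, also differed among the libraries, and 7 of 16 had a range of at least 1 (43.8%, beside 5.59% of all genes), while 1 of 16 differed 2-fold between controls 1 and 2 alone (1.57% of all genes). Nr1d1, a repressor of the clock, lay at 33.5, 16.2 and 61.9 FPKM, Per2, a core feedback component, at 14.3, 19.4 and 5.49 FPKM, Cry1, its partner, at 9.57, 15.8 and 5.25 FPKM, and Arntl, the positive factor, at 2.77, 3.98 and 5.67 FPKM. Control 3 was lowest in Per2 and Cry1 and highest in Nr1d1 and Arntl. The labels used here do not give the hour of collection. Of the genes that respond within minutes to handling, Fos lay at 91.8, 103 and 104 FPKM and Junb at 68.1, 54.98 and 64.8 FPKM. The heat shock genes Hspa1a (2.17, 2.18 and 9.73 FPKM) and Hspa1b (3.48, 3.94 and 16.6 FPKM) were high in control 3. These 2 of the 13 immediate early and stress genes had a range of at least 1, and 0 differed 2-fold between controls 1 and 2 alone. The median range of the 13 was 0.50, beside 0.31 over all genes. Red cell transcripts were also high there, at a summed share of 0.00699%, 0.0106% and 0.0459% over 7 genes, with Hba-a1 at 26.8, 35.8 and 219 FPKM and Alas2, the first enzyme of haem synthesis, at 0.377, 0.546 and 1.98 FPKM. Globin genes are near-identical copies and their split is uncertain, and the authors' deposited table lists Hba-a1 at 0. Of the mesothelium, the outer covering of the gut, Msln lay at 0.3000, 0.409 and 3.62 FPKM and Upk3b at 0.292, 0.377 and 2.58 FPKM, again high in control 3. Both reached a mean of at least 1 FPKM through control 3 alone. Between controls 1 and 2 alone, 1 of 4 measured red cell genes and 0 of 3 measured mesothelium genes differed 2-fold. The part of blood, outer wall or time of day in the differences of control 3 was not tested.

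**Figure D5:**
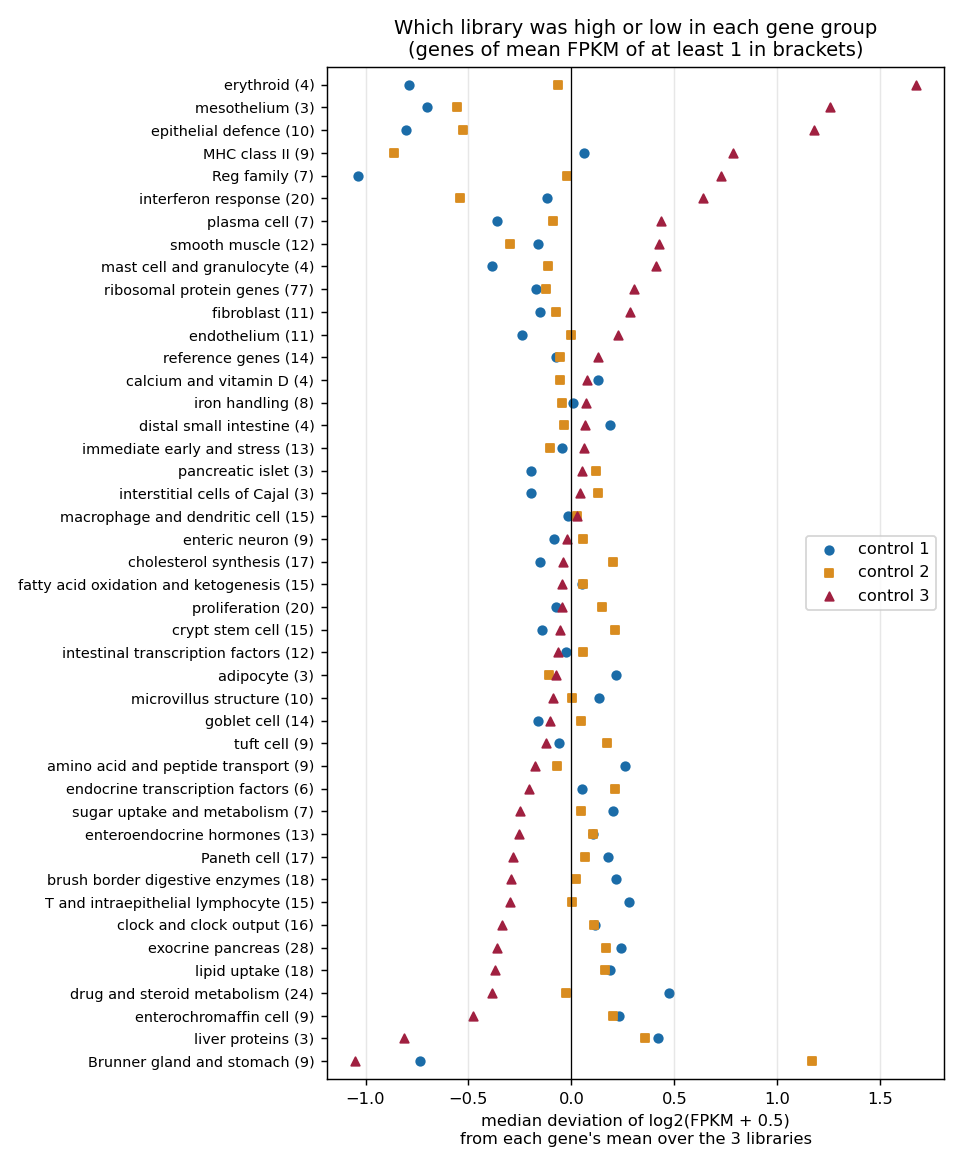
Median over the genes of each group (rows, with the number of genes at a mean of at least 1 FPKM) of the deviation of log2(FPKM + 0.5) from each gene's mean over the 3 libraries (x axis), 1 point per library. Control 3 lies to the right in the upper rows (erythroid, mesothelium, epithelial defence) and to the left in the lower rows (lipid uptake, drug metabolism), and control 2 lies to the right for Brunner gland and stomach genes (1.17).

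Some genes with a wide range stand in none of the groups above. St3gal4, a sialyltransferase, lay at 3.895, 191 and 277 FPKM, low in control 1, and H2-Bl, an MHC class I gene, at 246, 202 and 17.6 FPKM, low in control 3. Mt2, a metallothionein that binds zinc, lay at 116, 28.4 and 383 FPKM. Cfi, complement factor I, lay at 0.818, 1.700 and 27.5 FPKM, high in control 3, and A1cf, a factor of apolipoprotein B RNA editing, at 7.44, 9.84 and 0.0129 FPKM, low in control 3. The background of the mice is labelled as mixed, and the part of strain alleles in such genes was not tested. A wide range can also belong to the gene model. Rpl34 (65.2, 13.5 and 230.3 FPKM) and Rpl34-ps1 (0.0229, 54.03 and 0.000235 FPKM) overlap, and so do Hbb-b2 and Hbb-b1, so how fragments were split between them is uncertain. Of the 698 genes with a range of at least 1, 152 overlapped another model (21.8%, against 17.4% of all 12481), and 33 were shorter than 200 bases.

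At the other end, the 10 steadiest genes with a mean of at least 100 FPKM varied by less than 1.03-fold. They included Ppp1cc, a catalytic subunit of protein phosphatase 1, at 104, 103 and 103 FPKM, Apoe, an apolipoprotein, at 239.6, 237 and 238 FPKM, Dhrs11, a short-chain dehydrogenase, at 205, 203 and 201 FPKM, and Ywhah, a 14-3-3 protein, at 190.1, 191 and 194 FPKM. The authors' deposited table lists Ppp1cc at a mean of 496 normalized counts, where coverage gave an estimated 5134 fragments per library. Among 14 commonly used reference genes 0 had a range of at least 1, with Gapdh at 654, 685 and 645 FPKM (a mean of 108 normalized counts in the authors' deposited table), Actb at 1400.4, 1302 and 1428 FPKM, Tbp at 11.1, 9.897 and 9.83 FPKM and Hprt at 72.3, 83.1 and 87.4 FPKM. Ribosomal protein genes were highest in control 3 in 75 of 77 (74 under each of the other scalings), with a median deviation of 0.31 there. In 67 of the 77 that library was farthest and high, beside 24.4% of all genes. A range of at least 1 was reached by 5 of the 77 (6.49%, near the 5.59% of all genes), with 2 of 77 between controls 1 and 2 alone.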

How the data were processed

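Duodenal tissue (2 cm) was kept in RNAlater, its RNA (RIN over 8) was made into TruSeq libraries, and a HiSeq2000 was used, per the labels. According to the submitters' processing notes, mm9 was the genome and the tools were TopHat, Cufflinks, DESeq and CASAVA 1.8.2; their options, strandedness and roles are not given in the sources used here. FPKM values of 23699 gene models and of isoforms were deposited by the authors, with a coverage signal for isoforms, per the file headers. A table by the authors also holds a mean normalized count signal over the controls; there, 84 genes with a mean of at least 1 FPKM were listed at 0, and the ranks of genes in the authors' deposited table and in mean FPKM correlated at 0.808 (Spearman) over 12428 genes, which share the libraries and are not replicates. Of 11151 genes with an estimated 100 fragments or more, 415 (3.72%) had an authors' count under 50% of the estimate, among them 9 of 17 Paneth genes; the cause was not tested.

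Depth was estimated from coverage and FPKM: with an effective length 208 bases under the transcript length and 102 read bases per fragment, 93.6% of 6233 values under 8 fragments lay within 0.1 of a whole fragment. A gene model at 1 FPKM thus rests on 21.2 to 25.9 fragments per kilobase. The 3 libraries titled control were used (Python 3.11.15, pandas 2.3.3, numpy 2.4.6, scipy 1.17.1, matplotlib 3.10.9). Ranges use log2(FPKM + 0.5) and genes with a mean of at least 1 FPKM. A weakly expressed gene can pass this filter through a single library, which by itself favours a wide range. Folds are given where the lowest library held at least 10 fragments. Rows that share a name (712) were kept apart, and groups use the row of highest mean; 571 of 580 listed symbols matched. Coordinates are mm9, 1-based. The range measure was run on simulated data with shifts planted in single libraries, which checks the calculation and not the differences between these libraries. Named are the 30 highest genes, up to 4 of highest mean and 3 of largest range per group, hormones, endocrine factors, markers near 0, the 25 widest ranges (15 at a mean of at least 100 FPKM) and the 10 narrowest, leaving out predicted models and small RNAs; some further genes were chosen after their values were seen, and some that the rule names are not reported here. The members and lists were chosen with earlier results of these data known.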

Additional observations from a re-analysis of the deposited data

How the results depend on the processing

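No paired analysis was possible because only 1 group was used. The number of genes at 1 FPKM or more in all 3 libraries (11964) stayed within 1.5 times under each alternative, from 8203 (minimum of 5 FPKM) to 13015 (0.5 FPKM), and from 12050 to 12144 without 1 library. Multiplied by transcript length, the 10 and 100 genes highest on that scale held 8.37% and 25.6%, the pancreas list 3.03% and the lipid list 3.54%. In the authors' deposited table, a comparison chosen after seeing the data, the 10 and 100 highest held 8.28% and 25.3% of mean normalized counts. Without ribosomal protein genes in the total, the 100 highest held 39.5%. Without members that stand in another list, also chosen after seeing the data, the pancreas list held 3.44%. The Paneth list (3.22% of FPKM) held 0.774% of estimated fragments and 0.448% of the authors' counts, and the goblet list (1.65%) 1.05% and 1.06%, also chosen after seeing the data. Without 1 library, the shares ran from 14.8% to 15.8% (10 highest), 38.2% to 38.9% (100 highest), 5.49% to 5.97% (pancreas) and 4.66% to 6.41% (lipid uptake).

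The number of genes with a range of at least 1 (698) was 436 at a mean of at least 5 FPKM, which tests fewer genes, 163 at a range of at least 2, and between 584 and 843 under the other pseudocounts, scalings and filters. Without 1 library it ran from 202 (without control 3) to 515. Control 3 was farthest in 52.1% of genes at a range of at least 2, and in 58.2% to 62.6% under the other settings. The 95% Wilson interval of 60.7% runs from 57.1% to 64.3%. It treats the 698 genes as independent draws, which genes of the same 3 libraries are not, and it does not cover differences between libraries. Of 235 counts of group members under other pseudocounts and scalings, 25 moved by over 1.5 times, and of 160 ranges of the named variable genes 1 moved by more than its SD. Group medians changed sign in 29 of 432 cases, where the deposited median was at most 0.0754 on the log2 scale. With 3 libraries of 1 group, differences between single libraries have no replicate check.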

Other observations

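Some pairs of neighbouring or functionally related genes, but not all, kept their ratio over the libraries while their level spread. Reg3b to Reg3g stayed at 3.03 to 3.20, Tff2 to Gkn3 at 3.53 to 3.88, Apoa1 to Apoc3 at 11.4 to 12.2, and Cela2a to Cela1 at 1.60 to 1.66. In other pairs the ratio itself moved: Fabp2 to Fabp1 was 1.34, 1.02 and 0.734 in controls 1 to 3, and Sis to Lct 1.87, 2.77 and 12.6. Neighbouring genes were among these pairs. Apoa1 to Apoa4 was 1.10, 1.06 and 1.37, and Gkn2 to Gkn1 1.61, 1.87 and 0.356, where control 3 held few fragments of either gene. H2-Ab1 to H2-Aa was 1.20, 1.04 and 0.959. These ratios were chosen after their values were seen and are descriptions of 3 libraries.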
